A study of Saccharomyces cerevisiae with 4 samples.

Results

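The 10 genes described here serve iron uptake in the budding yeast Saccharomyces cerevisiae or activate its genes: FET3, FTR1, CCC2, ATX1, FRE1, FIT2, FIT3, SIT1, AFT1 and AFT2, out of 6002 nuclear protein-coding genes. They were chosen by name, and FET3 and FTR1 were picked because each carries an Arp4 peak wider than 1500 bp, so those widths are a description and were not tested. The assay was chromatin immunoprecipitation with sequencing, which locates a protein on the chromosomes. The tagged cells were wild-type with Arp4-3Flag (2 samples), and the untagged cells were wild-type with no tag (2 samples). All were grown in YPD, a rich medium, at 30 °C to mid-log phase, and in both an antibody against Flag was used. Arp4 is an actin-related protein of the nucleus that is shared by the NuA4 histone acetyltransferase and the SWR1 and INO80 chromatin remodellers.

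The data were 1 peak list of 1430 peaks on 16 chromosomes, named for Arp4 in wild-type cells. It holds no value per sample, so no value below has a replicate error, and the read depth and the signal in untagged cells were not analysed here. Fold enrichment (a linear ratio at the peak's highest point, the summit, over the peak caller's background) and −log10 q are the authors' values. Both serve here as descriptions and for ranking within this list, never to compare it with another peak list. Where folds of 2 sets of genes stand side by side, the difference was not tested. Over all peaks the median width was 359 bp, the median fold 1.66 and the median −log10 q 15.9.

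High-affinity iron uptake in yeast works through a plasma membrane complex. Fet3, a multicopper oxidase, oxidises ferrous iron, and Ftr1, a permease, carries it into the cell. Fet3 needs copper, which the chaperone Atx1 hands to Ccc2, a copper pump of the secretory pathway that loads Fet3. Reductases such as Fre1 first reduce ferric iron at the cell surface, and the cell wall mannoproteins Fit2 and Fit3 and the transporter Sit1 serve iron bound to siderophores. The transcription factors Aft1 and Aft2 switch these genes on when iron is scarce.

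Of the 10 genes 5 had an Arp4 summit in the promoter or body, against 21.9% of all protein-coding genes. A promoter summit (one lying between 500 bp before and 100 bp after the annotated gene start) was found at 3 of the 10 genes, FET3, FTR1 and CCC2, where 13.9% of all protein-coding genes had one. A body summit (over 100 bp from both gene ends) was found at 3 of 10, FET3, FIT2 and SIT1, against 10.2% of all genes. At least 1 peak base lay within 4 of 10, FET3, FTR1, FIT2 and SIT1, against 18.8% of all genes. FET3 was the 1 gene with both kinds of summit, which 2.20% of all genes had. The other 5 genes, ATX1, FRE1, FIT3, AFT1 and AFT2, had neither. Keeping only peaks at or above the median fold, or with a −log10 q of at least 10, a body summit was left at 1 of 10 (FET3), against 3.47% or 6.06% of all genes, and a peak base in 2 of 10 (FET3 and FTR1), against 9.90% or 13.5%. A window from 250 bp upstream to the start held a promoter summit at 1 of 10 (FTR1), against 2.23% of all genes. Because 2 of the 10 were chosen for their peaks, nothing is read from these counts about iron genes as a group.

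**Figure D1:**
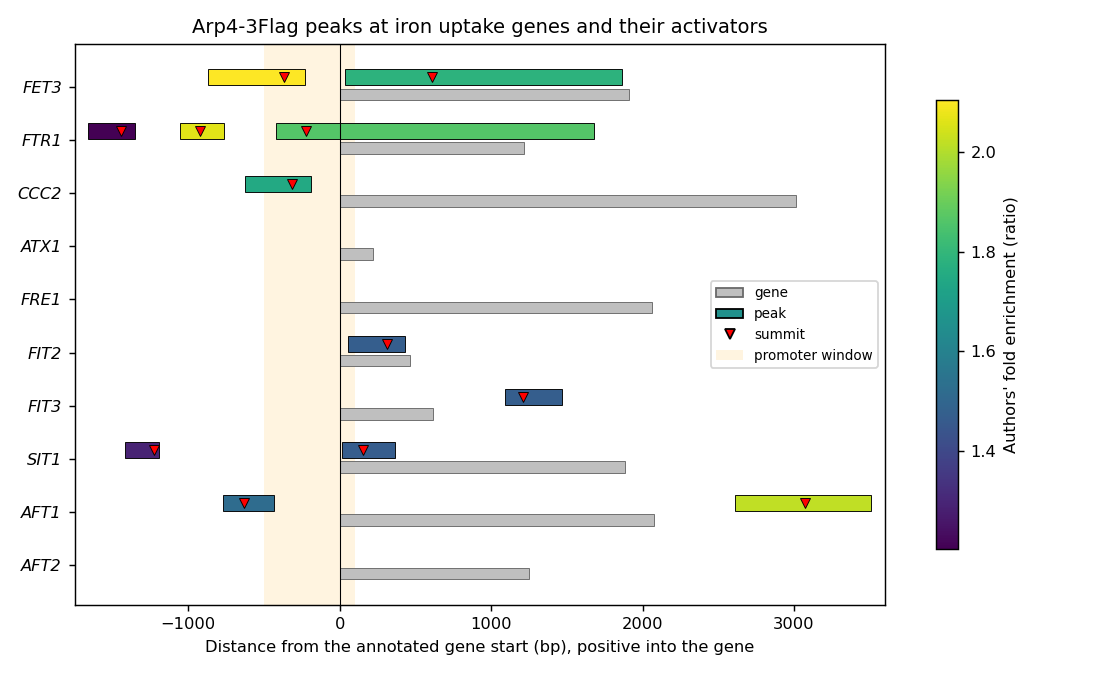
Arp4-3Flag peaks at the 10 genes, aligned at the annotated gene start. The x axis gives the distance in bp, positive into the gene; grey bars are genes, coloured bars are peaks shaded by the authors' fold enrichment, red triangles are summits, and the orange band is the promoter window. The peaks at FET3 and FTR1 run along the gene, the CCC2 peak stays upstream, and ATX1, FRE1 and AFT2 have no peak in view.

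FET3 (YMR058W), the ferroxidase gene, carried 2 peaks, 1 upstream and 1 along its coding sequence. The upstream peak (chromosome XIII, 387950 to 388593) was 644 bp wide, at 2.10-fold enrichment (−log10 q 40.7). Its summit lay 365 bp upstream of FET3. This was the highest fold at any of the 10 genes, ranking 268 of 1430, and 24.2% of all peaks had a fold of at least 2. The same summit lay 213 bp upstream of AAC1, which is read in the opposite direction and encodes an ADP/ATP carrier of the mitochondrial inner membrane. The upstream peak also covered 295 bp of AAC1 (31.7% of that gene), so it cannot be assigned to FET3 alone. The body peak (chromosome XIII, 388854 to 390688) was 1835 bp wide, at 1.78-fold enrichment (−log10 q 36.1). It began 32 bp inside FET3 and ended 44 bp before its last base, covering 96.0% of the gene. Its summit lay 609 bp inside, at 31.9% of the gene's length. A stretch of 260 bp without a peak, across the gene start, separated the pair. Arp4 enrichment at FET3 was thus called over the shared upstream region and over nearly the whole coding sequence, and not directly at the start.

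FTR1 (YER145C), the permease gene, had a single peak over the whole gene (chromosome V, 460062 to 462162). This peak was 2101 bp wide and reached 1.86-fold enrichment (−log10 q 36.1). It began 422 bp upstream of FTR1 and ended 464 bp past its last base, so that 100% of the 1215 bp gene was covered. Its summit lay outside the gene, 221 bp upstream of the start. At its far end the peak entered UBP5, which encodes a ubiquitin protease, and covered 162 bp or 6.70% of that gene. The next peak upstream (462503 to 462797, fold 2.07) lay 340 bp away. It had its summit 79 bp inside LSM5, which encodes an RNA-binding Sm-like protein. FTR1 and FET3 therefore differed in form. At FTR1 1 peak with an upstream summit joined promoter and gene, whereas at FET3 the upstream and coding peaks were called apart.

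In rank, the wide peaks at FET3 and FTR1 stood out by width, the value by which they were picked, and less so by fold. By width they were 12th and 7th of 1430 and exceeded 99.2% and 99.5% of all peaks. By fold they exceeded 61.7% and 68.1%, and by −log10 q 78.8% and 78.7%. Peaks with a body summit had a median fold of 1.53 and an upper quartile of 1.74, below the 1.78 of the FET3 body peak. For peaks with a promoter summit the median fold was 1.86, close to that of FTR1 (1.86). Of the other peaks with a summit in the promoter or body of the 10 genes, the widest was the upstream peak of FET3, at 644 bp, far from the 1500 bp limit. Over the whole list the narrowest peak above that limit was 1514 bp (at RRN5) and the widest below it 1488 bp (at EFT1).

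**Figure D2:**
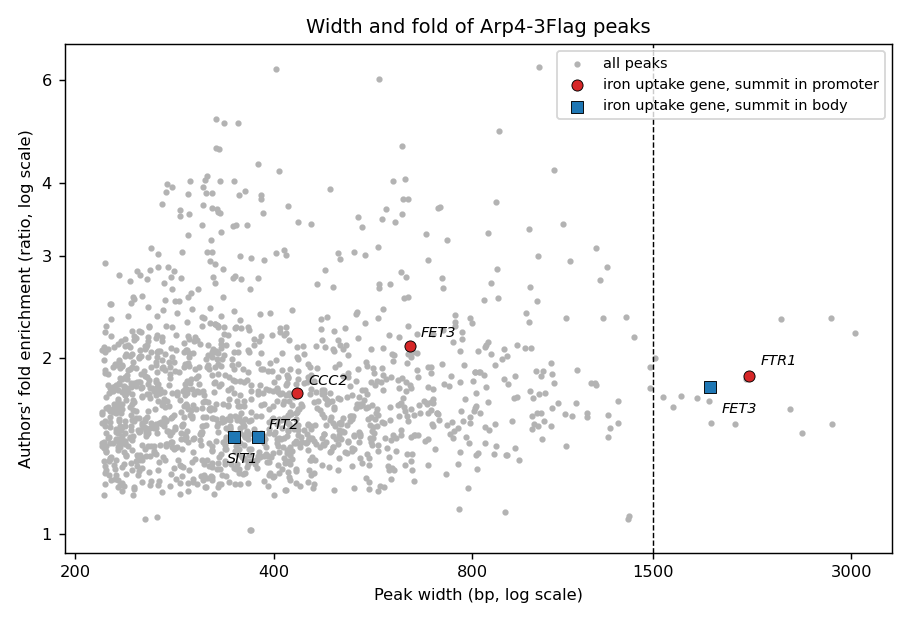
Width (x axis, bp, log scale) and authors' fold enrichment (y axis, ratio, log scale) of all 1430 peaks. Grey points are all peaks, red circles and blue squares are the 6 peaks with a summit in the promoter or body of an iron uptake gene, and the dashed line marks 1500 bp. FTR1 (2101 bp) and the FET3 body peak (1835 bp) lie right of the line at folds of 1.86 and 1.78, while FIT2 and SIT1 lie near the median width at a fold of 1.47.

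Of CCC2 and ATX1, whose products pass copper on to Fet3, CCC2 alone had a promoter summit, which 13.9% of all protein-coding genes had. CCC2 (YDR270W), the copper pump, had a peak upstream only (chromosome IV, 1005051 to 1005484), 434 bp wide, at 1.75-fold enrichment (−log10 q 18.7). Its summit lay 316 bp upstream of CCC2, and the peak ended 191 bp before the gene, so no base of the 3015 bp gene was covered. The far end of this peak overlapped the last 93 bp of MSW1, a mitochondrial tryptophanyl-tRNA synthetase gene that runs in the same direction. No other start lay closer to the summit than that of CCC2. ATX1 (YNL259C), the copper chaperone gene, had no peak. The nearest peak edge was 9117 bp from the gene.

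FRE1 (YLR214W), the surface reductase gene, had no peak, and the nearest peak edge was 10812 bp away. Of the 10 genes it lay farthest from any peak.

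The cell wall and siderophore genes had low peaks inside the gene, or none. FIT2 (YOR382W) carried a 378 bp peak (chromosome XV, 1059585 to 1059962) at 1.47-fold enrichment (−log10 q 5.99). It lay wholly within the 462 bp gene, from 54 bp inside the start to 30 bp before the last base, and covered 81.8% of it. FIT3 (YOR383C), which lies beside FIT2 and faces it tail to tail, was not covered, and the FIT2 peak stopped 479 bp short of it. FIT2 and FIT3 lie between the reductase genes FRE3 and FRE5, and of these iron genes FRE3, FIT3 and FRE5 held no peak base. SIT1 (YEL065W) carried a 348 bp peak (chromosome V, 27675 to 28022) at 1.47-fold enrichment (−log10 q 6.97). It ran from 18 to 365 bp inside the start, covering 18.4% of the 1887 bp gene, with the summit 154 bp inside. A weak peak farther upstream (fold 1.29, −log10 q 2.83) had its summit 1224 bp before SIT1 and 288 bp before HPA3, whose start was nearer. The FIT2 and SIT1 peaks were among the weaker ones of the list: 27.3% and 26.8% of all peaks had a lower fold, and 17.3% and 20.9% a lower −log10 q. Among peaks with a body summit, their folds lay between the lower quartile (1.39) and the median (1.53).

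The 2 activator genes had no summit in promoter or body, like most genes: 21.9% of all protein-coding genes had one. AFT1 (YGL071W) had a 339 bp peak farther upstream (chromosome VII, 371239 to 371577), with a fold of 1.52, a −log10 q of 22.1 and its summit 632 bp before the start. The peak ended 435 bp before the gene, and its other end overlapped the last 16 bp of HSF1, which encodes the heat shock transcription factor. This summit is outside the promoter window used here by distance, although AFT1 has the nearest start. A second peak past the end of AFT1 (fold 2.02) had its summit 1 bp from the start of MNP1, a mitochondrial ribosomal protein gene. AFT2 (YPL202C), the paralogue of AFT1, had its nearest peak edge at 3222 bp.

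Seen along the gene, FTR1 was covered from end to end and FET3 over all but its outermost bases, whereas FIT2 and SIT1 were covered in part. FET3 had 54.4% of its 500 bp upstream covered, 93.1% or more of each of 3 equal segments of the gene, and 0% of the 300 bp downstream. FTR1 had 84.4% upstream and 100% in each gene segment and downstream. FIT2 had 64.9%, 100% and 80.5% of its 3 segments covered, and SIT1 had 55.3% of its first and 0% of the other two. CCC2 was covered in 62.0% of the upstream stretch and AFT1 in 13.2%, with 0% in the gene for both. Averaged over the 10 genes the upstream share was 21.4% and the shares of the 3 gene segments were 31.5%, 30.0% and 27.4%. Over all protein-coding genes the upstream share was 9.68% and the gene segments had 8.61%, 7.25% and 7.33%. Of the 10 genes, FTR1 alone was covered downstream. The median share of the gene covered was 0% both over the 10 genes and over all genes, so the averages within the gene come from FET3, FTR1, FIT2 and SIT1.

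**Figure D3:**
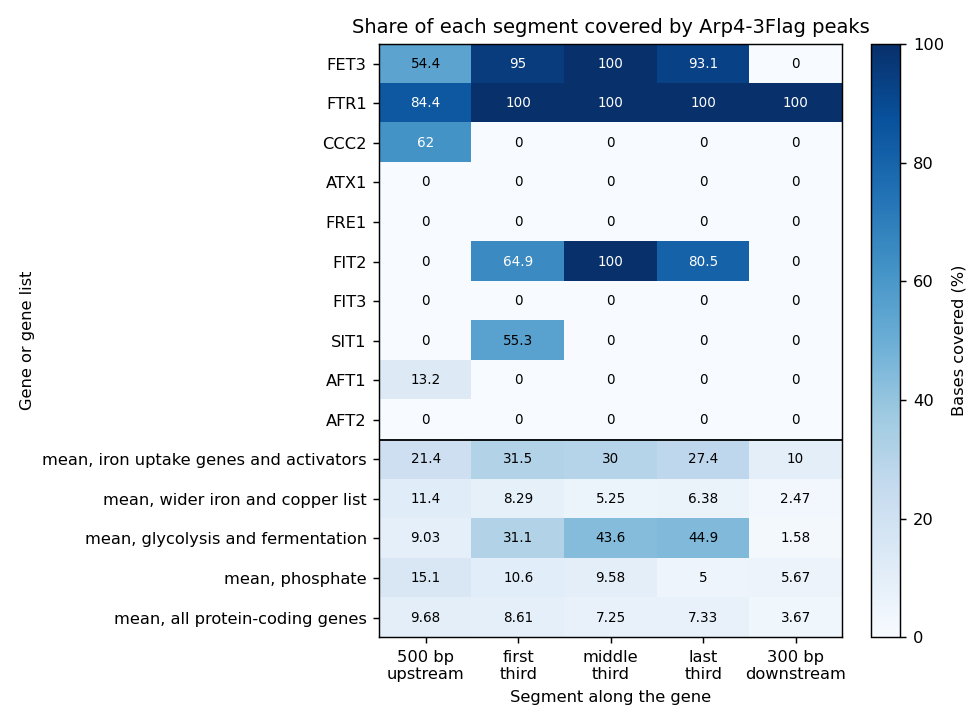
Share of bases (%) covered by Arp4-3Flag peaks in 5 segments along the gene (x axis) for the 10 genes, and means over gene lists below the line (y axis). FET3 and FTR1 are covered in all 3 gene segments, at 93.1% or more, and CCC2 and AFT1 only upstream, at 62.0% and 13.2%.

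Coverage of this extent was uncommon over all genes and among the genes at least as long as FTR1. At least 50% of the gene was covered at 3 of the 10 (FET3, FTR1 and FIT2), against 6.46% of all genes, and at least 95% at 2 of the 10, against 1.32% of all genes. Short genes fill more easily. Among the 2972 genes at least as long as FTR1, 10 were covered to at least 95%, FET3 and FTR1 among them, and 2 were covered completely, FTR1 being 1 of them. That set has no upper limit of length, so it is not matched to the length of either gene. These shares rest on the same peaks by which FET3 and FTR1 were picked, so they describe the pair and test nothing.

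A peak wider than 1500 bp touched 24 of 6002 genes (0.400%), and the list held 18 such peaks. Their median fold was 1.72, against 1.66 for the other peaks. Next to FTR1 in width stood the peaks at FAS2 (2528 bp), EFT2 (2422 bp) and SRO9 (2345 bp) above it, and at SSB2 (2077 bp), PMA1 (1999 bp) and FAA4 (1846 bp) below it. SSA2 (1838 bp) came between FAA4 and FET3, and INA1 (1827 bp), SSB1 (1749 bp) and SCS3 (1655 bp) followed FET3. Among these, FAS2 encodes a subunit of fatty acid synthase, EFT2 translation elongation factor 2, PMA1 the plasma membrane proton pump, and SSA2, SSB1 and SSB2 chaperones of the Hsp70 family. FAA4 encodes a long-chain acyl-CoA synthetase. How uniquely reads map at paralogues such as SSB1 and SSB2 was not tested. In 10 of the 18, FET3 included, both peak edges lay inside the gene that the peak covered most. FTR1 was 1 of 3 whose peak reached past both gene ends, with PRM7 and SCS3. It was also 1 of 2, with NOG1, whose summit lay outside the gene.

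**Figure D4:**
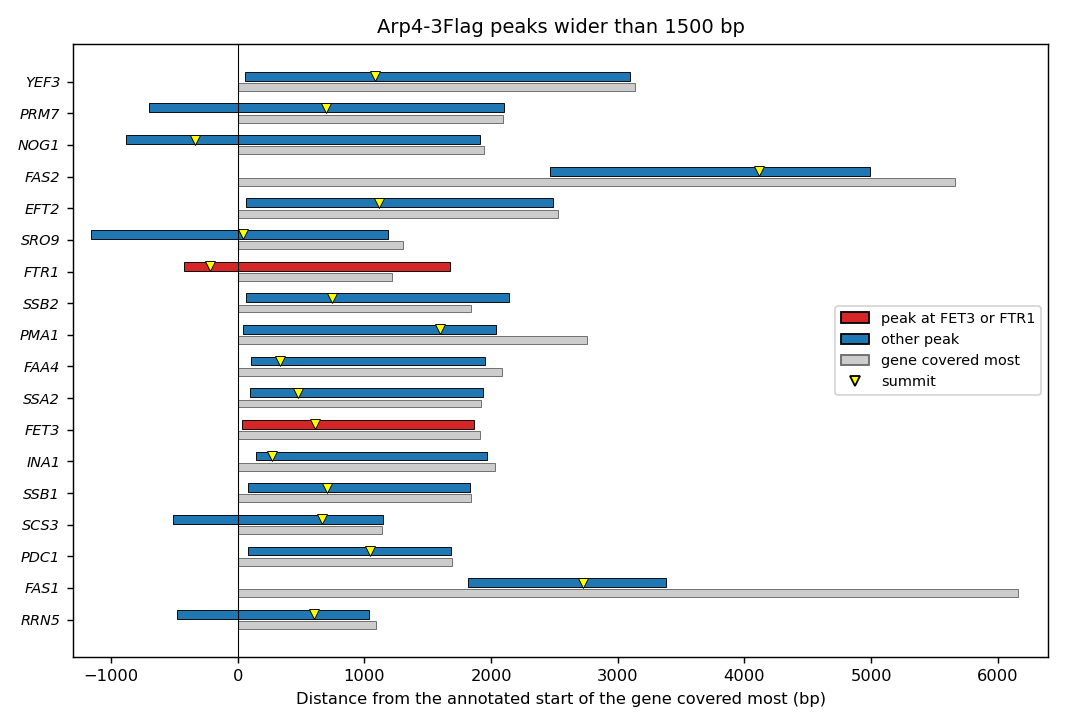
The 18 peaks wider than 1500 bp, in order of width from the top (y axis, named by the gene covered most), against distance in bp from that gene's start (x axis). Grey bars are genes, red bars the peaks at FET3 and FTR1, blue bars the other peaks, and triangles the summits. The FET3 peak begins 32 bp inside the gene and ends within it, as do the peaks at YEF3, EFT2 and PDC1, whereas the FTR1 peak reaches 422 bp before and 464 bp past its gene.

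The 5 genes most like FET3 in coverage were found by the Euclidean distance over the 5 segment shares, in percentage points. They were OLE1 (distance 9.99), SMX3 (14.6), YPR064W (15.4), CUP1-2 (15.8) and FAA4 (16.2). OLE1, the fatty acid desaturase gene, had 52.8% of its upstream stretch and 91.5% of the gene covered. Its gene coverage came from a peak 1403 bp wide that lay wholly inside the gene (fold 2.18). FAA4 had 57.2% upstream and 88.5% of the gene covered. SMX3, YPR064W and CUP1-2 are short, at 186 to 420 bp, and CUP1-2, a metallothionein gene, is a member of a set of near-identical copies to which reads cannot be assigned with certainty. For FTR1 the nearest were POC4 (3.20), DAD4 (5.40), TRM112 (9.20), SWC7 (15.9) and ARG80 (23.1). All 5 are 219 to 534 bp long, less than the 1215 bp of FTR1. SWC7 encodes a subunit of SWR1, a complex that holds Arp4.

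In 42 other genes of iron and copper handling, listed by function, promoter summits stood at 7 (16.7%) and body summits at 4 (9.52%), against 13.9% and 10.2% of all genes. Both shares were close to the background. A peak base lay within 7 of 42 (16.7%, against 18.8% of all genes), and at least 50% of the gene was covered at 2 (4.76%, against 6.46%). None of the 42 was covered as far as FET3, the highest being YFH1 at 80.6%.

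In the group of iron sensing, mRNA decay and heme turnover, 3 of 10 genes had a promoter summit (TIS11, CTH1 and HMX1), against 13.9% of all genes. TIS11, also known as CTH2, encodes an RNA-binding protein that promotes decay of mRNAs of iron-using proteins. It had an upstream peak with a fold of 2.06, with its summit 284 bp before the gene but 64 bp from the start of RKM5, and a second peak (fold 2.25) 705 bp inside that ran 38 bp past the gene end. Its paralogue CTH1 had a peak across the start with a fold of 2.19 and the summit 97 bp upstream. HMX1, the heme oxygenase gene, had a peak with a fold of 1.88 and the summit 411 bp upstream. The other 7 genes of this group had no promoter or body summit, among them GRX3 and GRX4, the glutaredoxin genes whose products take part in iron sensing.

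In iron–sulfur assembly, ISU1, a scaffold protein gene, had a peak with a fold of 1.99 and the summit 321 bp upstream. Its paralogue ISU2 had no promoter or body summit. YFH1, the yeast frataxin gene, had a peak with a fold of 1.76 and the summit 39 bp inside the start. SMF3, a vacuolar metal transporter gene, had a summit 480 bp upstream (fold 1.62). The other 7 vacuolar and low-affinity transport genes had no promoter or body summit, which 21.9% of all genes had. Those 7 include FET5 and FTH1, the vacuolar counterparts of FET3 and FTR1, neither of which held a peak base.

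All 7 reductase genes besides FRE1, such as FRE2 and FRE3, lacked a promoter summit, a body summit and any peak base within the gene. Most genes lack these too: 13.9% of all genes had a promoter summit, 10.2% a body summit and 18.8% a peak base. Upstream, peaks covered 17.8% of the 500 bp before FRE8 and 0.4% of those before FRE4. Among the siderophore and cell wall genes, ENB1 had a body peak at 1.38-fold enrichment (−log10 q 4.98), and the rest of that group, FIT1 and the siderophore transporter gene ARN1 among them, had neither kind of summit. In copper uptake, CTR2, a vacuolar copper transporter gene, had a fold of 2.87, higher than at any other of the 42 genes or at the 10 above, with the summit 126 bp inside the start. CTR1, the plasma membrane copper transporter gene, had 2 body peaks with folds of 1.50 and 1.46. CUP2, the gene of the activator of metallothionein genes, had a peak with a fold of 1.30 and the summit 62 bp inside the start. CTR3 and MAC1 had neither kind of summit, and nor had GEF1 and VPS41, which are needed for copper loading of Fet3.

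**Figure D5:**
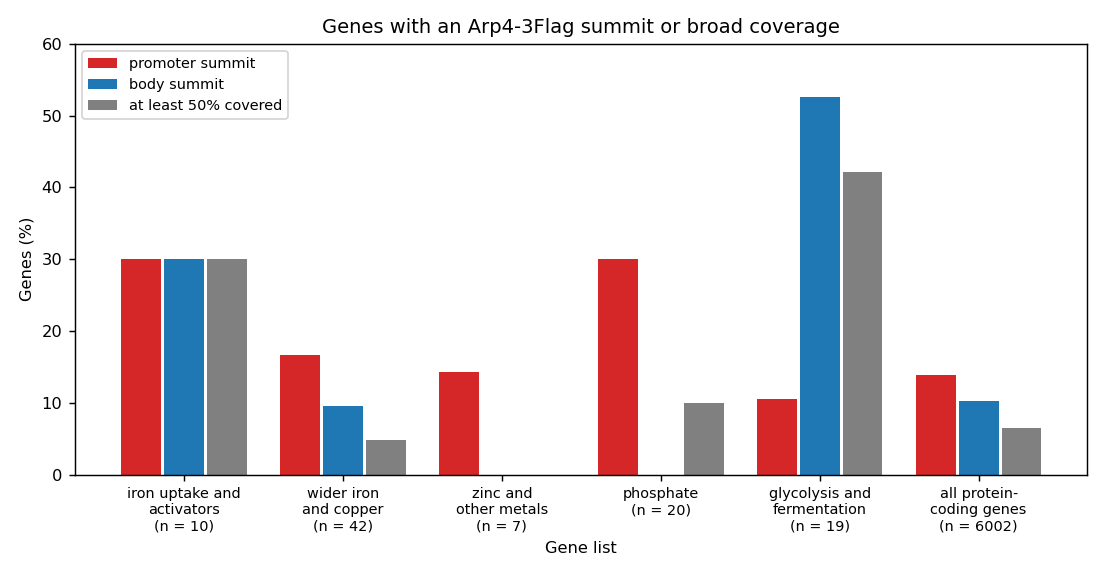
Share of genes (y axis, %) with a promoter summit (red), a body summit (blue) or at least 50% of the gene covered (grey) in each gene list (x axis, with its number of genes). The 10 iron uptake genes and activators stand at 30.0% in each, the 42 other iron and copper genes at 16.7%, 9.52% and 4.76%, and all protein-coding genes at 13.9%, 10.2% and 6.46%.

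The 10 genes were also set beside 3 other gene lists. At least 50% of the gene was covered in 3 of the 10 iron uptake genes and activators, and in 8 of 19 glycolysis and fermentation genes, led by PDC1, whose peak was 1608 bp wide, then ENO2 (93.7%) and CDC19 (88.6%), against 6.46% of all genes. FET3 had separate upstream and body peaks, and so had PGK1, the phosphoglycerate kinase gene, with a summit 368 bp upstream (fold 2.40) and a body peak over 88.5% of the gene. PDC1 had no upstream summit. A promoter summit was found at 3 of the 10 iron genes, 6 of 20 phosphate genes and 2 of 19 glycolysis and fermentation genes, against 13.9% of all genes. A body summit was found at 3 of the 10, 0 of the 20 and 10 of the 19, against 10.2%. The promoter peaks of FET3, FTR1 and CCC2 had folds of 2.10, 1.86 and 1.75, and the 6 at phosphate genes had 1.19 (PHO84), 1.27 (SPL2), 1.38 (VTC1), 1.59 (PHO8), 1.66 (PHO2) and 1.81 (PHO4). The promoter summits of FET3, PHO84, PHO8 and PHO4 lay nearer to the start of another gene. The activator genes AFT1 and AFT2 held no peak base, while PHO4, the phosphate activator gene, was covered to 100% by a peak 1063 bp wide (fold 1.81). That peak had its summit in the last 100 bp of PHO4, which the body count leaves out. Of all protein-coding genes 18.8% held a peak base. Of 7 zinc and other metal transport genes, 1 had a promoter summit (14.3%, against 13.9% of all genes). It was ZAP1, the zinc-responsive activator gene (fold 2.01), whose summit lay nearer to the start of LOG1. These differences between lists were not tested, and FET3 and FTR1 were picked for their wide peaks.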

How the data were processed

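The submitters' processing notes name MACS2, SAMtools 1.4, BWA 0.7.15-r1140 and fastp 0.21.0. Not given in the sources used here are their settings, the genome build, the control, the threshold, how multiply mapping reads were handled, and whether the tagged samples were pooled. The deposited list has the narrowPeak layout of MACS2, without a header. Fold enrichment, as the authors deposited it, is a ratio on a linear scale. The authors' −log10 q was 1.31 or more in every peak. The deposited score equals 10 times that value, cut to a whole number, and was left aside. The read depth is unknown.

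Positions are counted from 1. Genes came from the RefSeq table of R64, with strand read from systematic names. The match of build was checked on tRNA genes: a summit lay within 100 bp of 48 of 275, but of 4 to 13 once summits were displaced by 200, 500 or 1000 bp either way. Coordinates printed are those of peaks. Where windows of several genes held a summit, each gene was credited, and 1 bp sufficed as overlap.

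The 10 genes and all lists were chosen with earlier results of these data known. Named were the 10 genes, neighbours sharing their peaks, every other iron or copper gene with a promoter or body summit and up to 2 per group without, the 3 peaks next in width on either side, the 5 genes nearest in coverage, and up to 3 genes of highest coverage in each comparison list. The reductase genes FRE4, FRE5 and FRE8 were named beyond that limit, for upstream coverage or for lying beside FIT3. The genes named without a summit were picked within each group, mostly as paralogues, after their values had been seen. So were PGK1 and the phosphate genes besides PHO4, and YEF3, PDC1, PRM7, NOG1, RRN5 and EFT1 among the widest peaks. All 88 listed names matched the table. No test was run, since 1 list gives no spread between samples. The planned motif search was not done, as it needs sequence, which was not used here. As a check of the code alone, 60 made-up peaks were planted at known gene positions, and 60 of 60 were placed as planted. No reads were simulated and no peaks were called, so the check does not bear on peak detection. Python 3.11.15, numpy 2.4.6, pandas 2.3.3 and matplotlib 3.10.9 were used.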

Additional observations from a re-analysis of the deposited data

How the results depend on the processing

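Keeping only peaks at or above the median fold, body summits remained at 1 of the 10 genes (FET3, against 3.47% of all genes) and peak bases in 2 (FET3 and FTR1, against 9.90%). With a −log10 q of at least 10 these counts were again 1 and 2, against 6.06% and 13.5%. The 3 promoter summits were found at FET3, FTR1 and CCC2 under both stricter thresholds. A window from 250 bp upstream to the start held a summit at 1 gene (FTR1), against 2.23% of all genes, and counting any peak base in the window gave 6 genes, against 24.2%. A window reaching 1000 bp upstream gave 4, with AFT1 added, against 23.7%. When every summit was assigned to the closest start, 2 genes were left (FTR1 and CCC2, against 9.95%), since the FET3 summit fell to AAC1. Moving gene positions by 50 bp either way left the promoter genes as they were and dropped FIT2 from the body summits in 1 direction. Of 23 alternative values, 17 were within 1.5 times the count reported or equal to the median reported. The 17 include every value of the median share covered, which was 0% throughout. Stricter thresholds could not change it, since 6 of the 10 genes held no peak base. They also include counts that fell from 3 genes to 2. The tally therefore does not measure how stable the counts were. No paired analysis was possible because the list has no values per sample, and leaving out a replicate was not possible for the same reason. How uniquely reads map at paralogous genes was not tested.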
